A study of Mus musculus with 8 samples.

Results

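The genes described here are 10 transcription factor genes of the trophoblast, the lineage that forms the fetal part of the placenta: Cdx2, Gata3, Tead4, Eomes, Elf5, Tfap2c, Ascl2, Hand1, Gata2 and Tfap2a. They were chosen by name, and all of their 22 probe sets on the array were taken, out of 18194 named genes and 45101 probe sets. RNA came from NS tet-off ESCs, male mouse ES cells of a 129sv background in which both copies of the nucleostemin gene (NS, Gnl3) are disrupted and NS is made only from a doxycycline-repressible cDNA in the ROSA26 locus, so that adding doxycycline (Dox) ablates NS expression. All arrays share this genotype. The 4 pairs of cultures were Dox-treated for 6 days or left Dox-untreated: Nanog-overexpressing cells, Esrrb-overexpressing cells, empty vector cells in the 2i condition with MEK and GSK3b inhibitors (the 2i pair), and empty vector cells without 2i (the vector pair), conventional culture being in LIF and serum. Each of the 8 conditions had 1 array, so a value within a pair has no replicate and no test.

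In the embryo, trophectoderm is set apart from the inner cell mass when the Hippo pathway is off and TEAD4, the DNA-binding partner of YAP, switches on Cdx2 and Gata3. A loop of CDX2, EOMES, ELF5 and TFAP2C then keeps trophoblast stem cells going under FGF4, whereas ASCL2 is needed for the spongiotrophoblast, HAND1 for giant cells, and GATA2 for placental hormone genes together with GATA3. Mouse ES cells normally do not enter this lineage, and OCT4 represses Cdx2 in them. Several of these factors also serve other tissues. TFAP2A, TFAP2C and GATA3 act in the epidermis, EOMES in the primitive streak, and TFAP2C in germ cells.

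The members did not move as 1 block. With forced Nanog or Esrrb, 0 of 10 genes were over 2-fold higher after Dox, where 1.13 percent (Nanog) and 1.06 percent (Esrrb) of all genes were. The count was 4 of 10 in the 2i pair, where 4.81 percent of all genes were, and 4 of 10 in the vector pair, where 5.36 percent were. Those genes were Gata3, Eomes, Tfap2a and Tfap2c with 2i, and Gata3, Eomes, Ascl2 and Cdx2 in the vector pair. Hand1 and Gata2 stayed under 2-fold in every pair, and Elf5 and Tead4 had ratios near 0. No member was over 2-fold lower in any pair, where, for Nanog, Esrrb, 2i and vector, 1.17, 0.967, 3.1 and 3.85 percent of all genes were. Each gene is counted by the probe set with the highest mean signal.

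RefSeq promoter windows of the GRCm38.p6 assembly, from 250 bases before to 50 bases after a transcription start, were matched to 7 of the 10 genes, in 10 windows. Those of Gata3 and Ascl2, the members with the largest ratios, of Cdx2, the factor that specifies trophectoderm, and of Elf5, whose ratios were near 0, are printed so that the letters can be read beside the values. Capitals mark each match, on either strand, to 1 of the 6 motifs searched. AP-2 was read as GCCNNNGGC, the octamer as ATGCAAAT and T-box as AGGTGTGA. The TEAD letters were GGAATG. The CDX letters were TTTATG. For the GATA motif TGATAA was read with adenine or thymine first and with adenine or guanine last. None of these motifs holds another in full. Sequences run 5′ to 3′ along the gene's strand.
Gata3, chr2:9878551-9878850, minus strand: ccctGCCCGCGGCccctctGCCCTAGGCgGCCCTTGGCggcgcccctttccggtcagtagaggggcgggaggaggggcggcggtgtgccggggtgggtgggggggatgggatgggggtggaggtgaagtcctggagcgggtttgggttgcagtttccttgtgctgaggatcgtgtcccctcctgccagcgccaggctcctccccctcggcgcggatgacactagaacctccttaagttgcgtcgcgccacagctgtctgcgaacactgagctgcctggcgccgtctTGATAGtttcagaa
Ascl2, chr7:142969215-142969514, minus strand: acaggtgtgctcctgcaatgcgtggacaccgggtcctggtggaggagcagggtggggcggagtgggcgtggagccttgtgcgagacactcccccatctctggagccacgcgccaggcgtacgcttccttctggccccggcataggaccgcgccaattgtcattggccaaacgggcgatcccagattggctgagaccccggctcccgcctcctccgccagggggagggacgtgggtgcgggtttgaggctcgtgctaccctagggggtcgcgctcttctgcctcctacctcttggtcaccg
Cdx2, chr5:147307200-147307499, minus strand: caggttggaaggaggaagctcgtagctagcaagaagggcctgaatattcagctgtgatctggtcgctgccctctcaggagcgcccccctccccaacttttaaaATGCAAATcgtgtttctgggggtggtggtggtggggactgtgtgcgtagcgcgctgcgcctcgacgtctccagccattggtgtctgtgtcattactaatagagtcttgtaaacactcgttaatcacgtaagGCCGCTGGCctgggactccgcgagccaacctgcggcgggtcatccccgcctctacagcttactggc
Elf5 window 1, chr2:103411848-103412147, plus strand: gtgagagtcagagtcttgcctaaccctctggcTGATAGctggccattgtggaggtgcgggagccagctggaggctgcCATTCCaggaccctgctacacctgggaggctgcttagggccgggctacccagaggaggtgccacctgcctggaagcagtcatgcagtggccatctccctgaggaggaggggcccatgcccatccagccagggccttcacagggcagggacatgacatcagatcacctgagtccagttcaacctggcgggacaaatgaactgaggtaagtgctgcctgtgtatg
Elf5 window 2, chr2:103423818-103424117, plus strand: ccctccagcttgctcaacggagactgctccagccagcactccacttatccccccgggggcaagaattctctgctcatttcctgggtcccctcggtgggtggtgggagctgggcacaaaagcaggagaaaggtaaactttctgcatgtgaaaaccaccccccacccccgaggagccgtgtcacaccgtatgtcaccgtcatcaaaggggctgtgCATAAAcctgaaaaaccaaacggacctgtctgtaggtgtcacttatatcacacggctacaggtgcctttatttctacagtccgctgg
The Gata3 window held 3 AP-2 matches and 1 GATA match, the Cdx2 window 1 AP-2 match and 1 octamer, Elf5 window 1 held 1 GATA and 1 TEAD match and window 2 held 1 CDX match, and the Ascl2 window none. Of all 32851 promoter windows, 29.8 percent held the GATA letters, 16.6 percent AP-2, 14.7 percent TEAD, 11.9 percent CDX, 1.74 percent the octamer and 1.28 percent T-box. The CG dinucleotide occurred 22 times in the Gata3 window, 23 in that of Ascl2, 18 in that of Cdx2 and 10 in that of Eomes, 3 and 10 times in those of Elf5, 32 and 29 times in those of Gata2, and 11 and 15 times in those of Tfap2a. The median over all windows was 7. A match describes the letters in the window and was not tested as a binding site.

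Values are log2 signals after robust multiarray analysis (RMA), and a log2 ratio of 1 is 2-fold. Levels of different probe sets are not on a common scale, so the levels of different members are not set against each other, and a signal summed over a gene list, always over the same probe sets, is led by its brightest ones. NS itself was checked first. Gnl3 had 9.13, 8.61, 8.01 and 7.79 on the Dox-treated Nanog, Esrrb, 2i and vector arrays, against 13.68, 13.61, 13.54 and 13.47 on their Dox-untreated arrays, and fell by 5.19 ± 0.18 (SE) on the log2 scale in the common fit (limma, adjusted p = 0.00176). The 2i labels were checked with Dusp6 and Spry4, feedback genes that need MEK activity. Dusp6 had 7.64 on the 2i Dox-treated array and 10.95 on the array labelled 2i Dox-untreated, against 11.40 and 10.97 on the vector arrays with and without Dox. Spry4 had 4.07 and 9.92 on the 2i arrays with and without Dox, against 9.17 and 10.17 on the vector arrays. The array labelled 2i Dox-untreated thus had both genes at the vector level, so that Dox and the inhibitors cannot be told apart in the ratios of the 2i pair. The 2i value of each member and the 2i counts of the gene lists are also given against the vector Dox-untreated array. That contrast holds Dox and the inhibitors together as well. Both limma fits include the 2i pair, so their coefficients and p-values carry the inhibitors too. The summed linear signal of 9 ES cell markers was 67125, 75936, 70484 and 59160 on the Dox-treated Nanog, Esrrb, 2i and vector arrays. On their Dox-untreated arrays it was 66876, 69568, 72549 and 69709. As a rough guide to the signal of an unexpressed gene, 25 genes restricted to other tissues were read. Their mean levels ran from 2.48 to 8.56, with a median of 4.61. The highest was Neurod1, at 6.68 to 11.37 over the arrays, so the upper end is no guide to an unexpressed gene. Cdx2 and Elf5 lay near or below the median of 4.61, as did Gata3 on the arrays where it was low. So did Hand1 1448750_at and Tfap2a 1421995_at, and Ascl2 1432018_at and 1422396_s_at on the Nanog, Esrrb and Dox-untreated vector arrays. Whether their RNA was detected there is not known. In a bulk sample fewer cells with a transcript and less transcript per cell cannot be told apart.

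**Figure D1:**
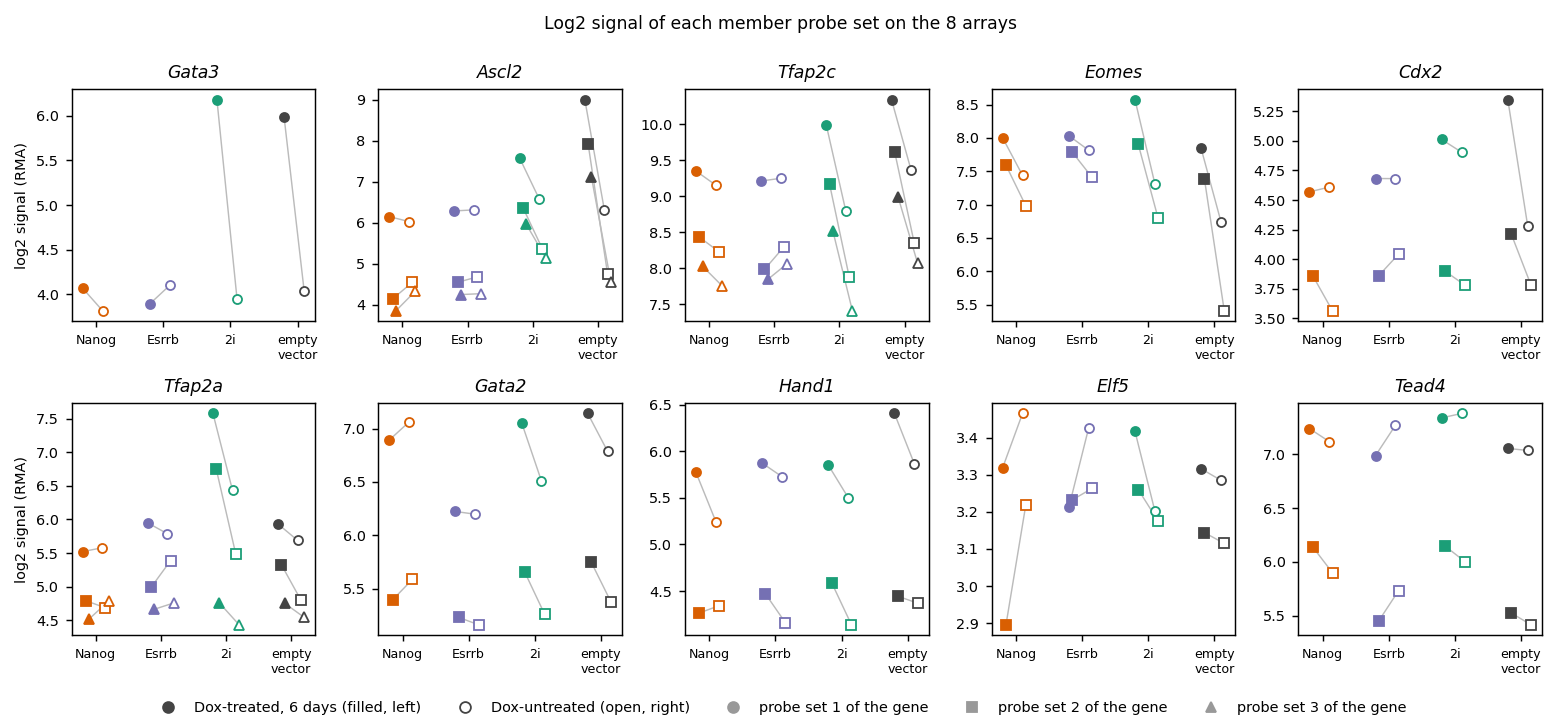
Log2 signal (vertical axis, a separate scale for each gene) of the 22 member probe sets on the 8 arrays, by background, with filled points for Dox-treated and open points for Dox-untreated cells and a line joining each pair (1 array per point). Gata3 stands at 6.18 and 5.99 on the Dox-treated 2i and vector arrays and at 3.82 to 4.10 on the other 6 arrays. Those 2 arrays lie above the other 6 for 9.12 percent of all probe sets. Eomes reaches a like level on all 4 Dox-treated arrays.

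Gata3, a zinc finger factor that acts beside CDX2 in trophectoderm, was high on 2 arrays only. With forced Nanog its single probe set had 4.07 with Dox and 3.82 without, and with forced Esrrb 3.89 and 4.10. It had 6.18 with Dox and 3.95 without in the 2i pair, and 5.99 with Dox and 4.03 without in the vector pair. The Dox-treated 2i and vector arrays lay above the other 6, as for 9.12 percent of all probe sets. The other 6 spanned 3.82 to 4.10. The log2 ratios were 0.26 for Nanog and -0.21 for Esrrb, against 2.23 for 2i (2.15 when set against the vector Dox-untreated array) and 1.95 for vector. These are folds of 4.70 and 3.87 in the 2i and vector pairs. The Dox ratio under forced Nanog or Esrrb was lower by 2.07 ± 0.25 (SE) than that of 2i and vector cells, with an adjusted p of 0.0489 in limma over all probe sets. Gata3 was the only member to pass this test. Its adjusted p lay between 0.0442 and 0.0811 under the other settings that kept all pairs, so the call was lost under 5 of them, and it was lost without the Nanog pair (0.633) or the Esrrb pair (0.641).

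Cdx2, the homeobox factor that specifies trophectoderm, gave a smaller signal. Probe set 1422075_at had 4.57 with Dox and 4.61 without under forced Nanog, and 4.68 and 4.68 under forced Esrrb. It had 5.01 with Dox and 4.91 without in the 2i pair, and 5.35 with Dox and 4.28 without in the vector pair. Only the vector ratio of 1.07 was over 2-fold, and the Nanog, Esrrb and 2i ratios were -0.04, 0.000 and 0.11. The Dox-untreated vector array was the lowest of all 8, and against it the 2i Dox-treated array was 0.73 higher. The other probe set, 1422074_at, had ratios of 0.30, -0.18, 0.12 and 0.43 in the Nanog, Esrrb, 2i and vector pairs, and the 2 probe sets correlated over the 8 arrays with r = 0.63. Neither the common Dox response of 1422075_at (0.28 ± 0.20, adjusted p = 0.441) nor its difference between kinds of pair (-0.61 ± 0.34, adjusted p = 0.513) passed in limma.

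Tead4 lies upstream of both genes and had a like level on every array. Probe set 1460683_at had 7.24 with Dox and 7.12 without under forced Nanog, 6.99 and 7.27 under forced Esrrb, 7.34 and 7.38 with 2i, and 7.06 and 7.04 in the vector pair. All 4 ratios lay between -0.28 and 0.12, and those of 1426337_a_at between -0.28 and 0.24. Against the vector Dox-untreated array the 2i Dox-treated array was 0.30 and 0.73 higher on the 2 probe sets. The common response was -0.05 ± 0.12 (limma, adjusted p = 0.851).

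Of the trophoblast stem cell factors, Eomes, a T-box factor, had its Dox-treated arrays close to each other. Probe set 1426001_at had 8.001, 8.03, 8.57 and 7.84 on the Dox-treated Nanog, Esrrb, 2i and vector arrays, against 7.44, 7.82, 7.32 and 6.74 on the Dox-untreated arrays. On this probe set all Dox-treated arrays lay above all Dox-untreated arrays, as for 6.58 percent of all probe sets. The margin was narrow, at 7.84 (vector, with Dox) against 7.82 (Esrrb, without). The ratios were 0.56, 0.22, 1.26 and 1.10. Probe set 1435172_at had 7.59, 7.79, 7.90 and 7.38 with Dox, against 6.98, 7.41, 6.79 and 5.41 without, so that the 2 ranges overlapped. Its ratios were 0.61, 0.38, 1.11 and 1.98. The Dox-treated arrays spanned 0.52 and the Dox-untreated arrays 2.00 on this probe set, with starting levels that were 1.58, 2.00 and 1.39 higher in Nanog, Esrrb and 2i cells than in vector cells. The common response was 0.78 ± 0.19 for 1426001_at (limma, adjusted p = 0.0622, unadjusted p = 0.00492) and 1.02 ± 0.26 for 1435172_at (adjusted p = 0.0694). It came close to the threshold without passing it. Against the vector Dox-untreated array the 2i Dox-treated array was 1.83 and 2.50 higher on the 2 probe sets.

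Tfap2c, an AP-2 factor of trophoblast stem cells that is also expressed in ES cells, was highest on the Dox-treated 2i and vector arrays. With forced Nanog, probe set 1436392_s_at had 9.35 with Dox and 9.16 without, and with forced Esrrb 9.21 and 9.25. It had 9.99 with Dox and 8.79 without in the 2i pair, and 10.34 with Dox and 9.36 without in the vector pair. Its ratios were 0.19, -0.04, 1.20 and 0.98, and the other 2 probe sets gave 0.20, -0.32, 1.28 and 1.27 (1448977_at) and 0.27, -0.22, 1.11 and 0.92 (1418147_at). All 3 probe sets had the Dox-treated 2i and vector arrays above the other 6, as did 9.12 percent of all probe sets, and they correlated with r from 0.96 to 0.99. Under forced Nanog or Esrrb the response was lower by 1.01 ± 0.17 on 1436392_s_at (limma, adjusted p = 0.0757) and by 1.33 ± 0.22 on 1448977_at (adjusted p = 0.0736). Neither passed. The 2i value depended on its reference: against the vector Dox-untreated array the 3 probe sets had 0.62, 0.82 and 0.45, all under 2-fold.

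Elf5, an ETS factor that locks in the trophoblast stem cell state and is methylated in ES cells, showed no such signal. Probe set 1419556_at lay between 3.21 and 3.42 on the 4 Dox-treated arrays and between 3.20 and 3.47 on the 4 Dox-untreated arrays, and 1419555_at between 2.90 and 3.26 with Dox and between 3.12 and 3.26 without. The 8 ratios lay between -0.32 and 0.21, and the 2 probe sets followed each other with r = 0.25 only. The 2i Dox-treated array was 0.13 and 0.14 above the vector Dox-untreated array. Neither the common response of Elf5 (-0.03 ± 0.10, adjusted p = 0.888 in limma) nor the difference (-0.30 ± 0.17, adjusted p = 0.530) passed.

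**Figure D2:**
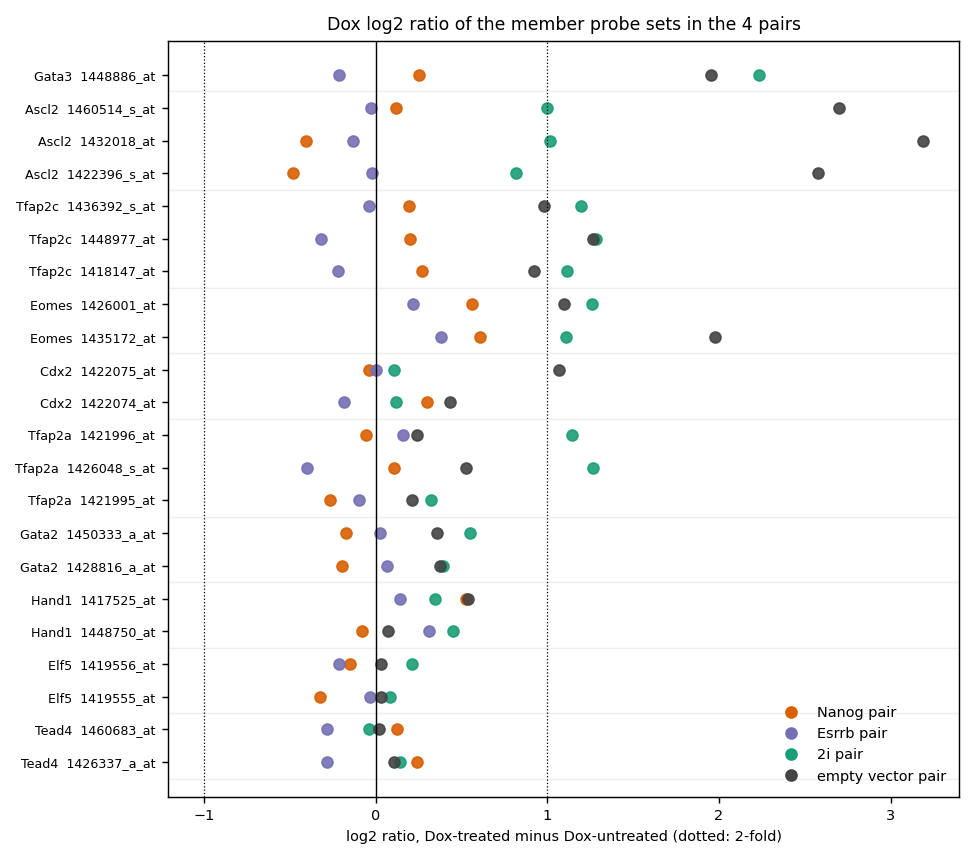
Dox-treated minus Dox-untreated log2 signal (horizontal axis, dotted lines at 2-fold) for the 22 member probe sets, with 1 point per pair, coloured by background. Ascl2 reaches 3.19 in the vector pair, 9 probe sets lie past 2-fold for 2i and 8 for vector (3.16 and 3.92 percent of all probe sets), and all points of the Nanog and Esrrb pairs lie between -0.48 and 0.61.

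Ascl2, the bHLH factor of the ectoplacental cone and spongiotrophoblast, had the largest ratio of all members. With forced Nanog, probe set 1460514_s_at had 6.14 with Dox and 6.03 without, and with forced Esrrb 6.29 and 6.31. It had 7.57 with Dox and 6.58 without in the 2i pair, and 9.001 with Dox and 6.30 without in the vector pair. The vector Dox-treated array was the highest, and the 2i Dox-treated array lay between it and the other 6. Both arrays lay above the other 6 for 9.12 percent of all probe sets. The ratios were 0.12, -0.02, 0.999 and 2.70, where the 2i ratio was just under 2-fold, and 1.27 against the vector Dox-untreated array. Probe set 1432018_at had 7.92 with Dox and 4.74 without in the vector pair, the latter near the 4.61 median of tissue-restricted genes. It had a ratio of 3.19 and a fold of 9.13 there, which ranked 99 among 45101 probe sets. Its ratios in the Nanog, Esrrb and 2i pairs were -0.41, -0.13 and 1.01, and those of 1422396_s_at over the 4 pairs were -0.48, -0.02, 0.82 and 2.58. The 3 probe sets correlated with r from 0.969 to 0.995. Neither the common response (0.95 ± 0.43, adjusted p = 0.242) nor the difference between kinds of pair (-1.80 ± 0.51, adjusted p = 0.201) passed in limma.

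Hand1, the bHLH factor of giant cells, had small positive ratios of 0.53, 0.15, 0.35 and 0.54 on 1417525_at. Its Dox-treated arrays had 5.77, 5.87, 5.85 and 6.40, against 5.25, 5.73, 5.50 and 5.87 on the Dox-untreated arrays, and the 2 ranges overlapped. The common response of 0.39 ± 0.12 had an adjusted p of 0.105 in limma, and the second probe set, 1448750_at, had 0.19 ± 0.12 (adjusted p = 0.385). Against the vector Dox-untreated array the 2i Dox-treated array differed by -0.02 on 1417525_at.

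Gata2, which acts with GATA3 on placental hormone genes and is also a blood factor, had 6.89 with Dox and 7.06 without under forced Nanog, and 6.22 and 6.20 under forced Esrrb, on 1450333_a_at. It had 7.06 with Dox and 6.51 without under 2i, and 7.14 and 6.79 in the vector pair. The ratios of -0.17, 0.03, 0.55 and 0.36 were all under 2-fold, and those of 1428816_a_at lay between -0.19 and 0.39. The 2i Dox-treated array was 0.27 and 0.28 above the vector Dox-untreated array. The difference between kinds of pair was -0.52 ± 0.21 (limma, unadjusted p = 0.0438, adjusted p = 0.351). Gata2 and Gata3 thus had ratios of different size in the vector pair, 0.36 and 1.95.

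Tfap2a, an AP-2 factor of placenta, epidermis and neural crest, was over 2-fold higher in the 2i pair. Probe set 1421996_at had 5.52 with Dox and 5.58 without under forced Nanog, and 5.95 and 5.79 under forced Esrrb. It had 7.57 with Dox and 6.43 without under 2i, and 5.93 and 5.69 in the vector pair. The 2 arrays labelled 2i were the highest of the 8. The ratios were -0.06, 0.16, 1.14 and 0.24, and 1426048_s_at had 0.11, -0.40, 1.27 and 0.53. Against the vector Dox-untreated array the 2i Dox-treated array was 1.89 and 1.95 higher. The third probe set, 1421995_at, had -0.26, -0.09, 0.32 and 0.21 and followed the other 2 with r of 0.13 and 0.25. No limma test of Tfap2a passed, with adjusted p of 0.325 and 0.474 for the common response and the difference on 1421996_at.

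Over all 22 probe sets, 12 ratios were positive for Nanog, 8 for Esrrb, 21 for 2i and 22 for vector, where 49.1 percent (Nanog), 48.4 percent (Esrrb), 22558 of 45101 (2i) and 46.2 percent (vector) of all probe sets were. The median ratio over the 10 genes was 0.12, -0.01, 0.77 and 0.76 in these pairs, in that order, where the median over all genes was -0.01, 0.00, 0.03 and -0.03. With the vector Dox-untreated array as reference of the 2i Dox-treated array, 4 of 10 genes were again over 2-fold higher, where 5.99 percent of all genes were. These were Gata3, Eomes, Tfap2a and Ascl2, with Ascl2 in the place of Tfap2c. For the common Dox response 0 of 10 genes passed in limma, where 3.86 percent of all genes passed as higher and 3.49 percent as lower, and 4 of 10 had an unadjusted p under 0.05 and were higher (Eomes, Hand1, Tfap2c and Gata3), where 13.8 percent of all genes were. For the difference, 1 of 10 genes passed as lower with forced Nanog or Esrrb and 0 as higher, where 0.33 and 0.132 percent of all genes did, and 5 of 10 had an unadjusted p under 0.05, where 8.29 percent did. The coefficient of the difference was negative for all 22 member probe sets, where it was for 50.1 percent of all probe sets.

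**Figure D3:**
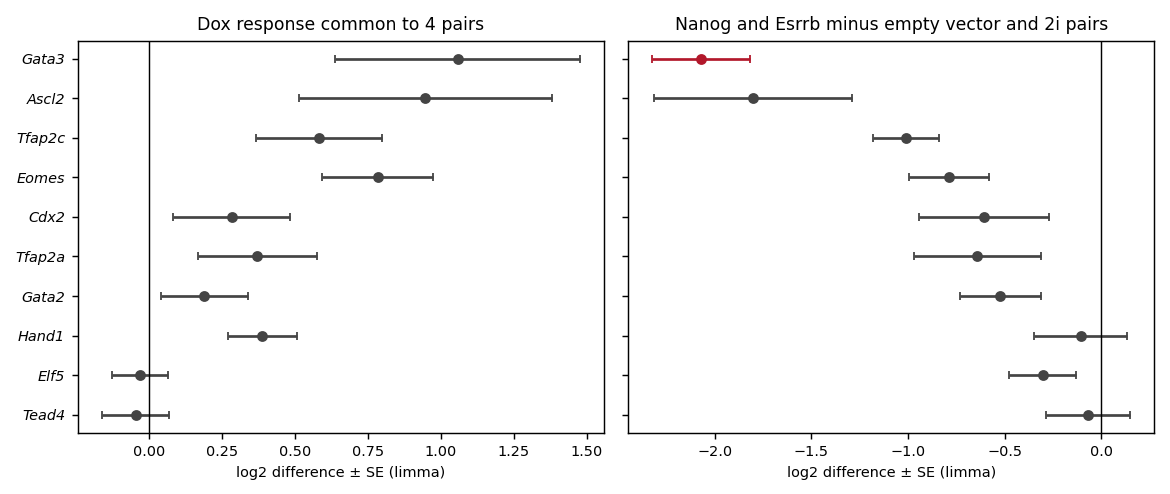
Limma log2 coefficients ± SE for the highest-mean probe set of each member: left, the Dox response common to the 4 pairs, and right, the response under forced Nanog or Esrrb minus that of 2i and vector cells. Red marks an adjusted p under 0.05 over all probe sets, reached by Gata3 alone at -2.07, while Elf5 and Tead4 lie near 0 on the left.

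The genes whose pattern over the 8 arrays was most like a member's were taken among 4185 genes with a range over 1, for the 4 members over 2-fold higher in the vector pair. Gata3 was followed by Map3k8 and Rhob (r = 0.99 each) and Bet1l (r = 0.99). Ascl2 was followed by Smim3 and Nanos1 (r = 0.98 each) and Thbs1 (r = 0.98), Eomes by Fam214b, Prkcz and Cd9 (r = 0.97, 0.97 and 0.96), and Cdx2 by Sgce, Arntl and Krt18 (r = 0.94, 0.94 and 0.93). These r run over the same 8 arrays, Dox-treated and Dox-untreated, so they also hold any shared response to Dox.

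Other trophoblast genes were as uneven as the members. Of 16 measured trophoblast effector genes, 1 was over 2-fold higher with forced Nanog, 0 with forced Esrrb, 6 with 2i and 7 in the vector pair, with 0 over 2-fold lower. With the vector Dox-untreated array as reference 8 were higher in 2i. The keratins of simple epithelium had the largest ratios in the vector pair. Krt19 had 9.97 and 6.77 with and without Dox under 2i, against 11.39 and 6.43 in the vector pair, ratios of 3.21 and 4.96. In the 2i and vector pairs Krt18 had ratios of 1.68 and 4.42, Krt8 of 1.70 and 3.85, and Krt7 of 3.75 and 2.91. Against the vector Dox-untreated array the 2i ratios of Krt19, Krt18, Krt8 and Krt7 were 3.55, 2.74, 2.32 and 4.29. None of these 4 keratins passed either limma test (adjusted p from 0.0537 to 0.361). The placental genes differed between the 2 pairs: in 2i and vector Peg10 had ratios of -0.78 and 2.11, Plac1 of 0.75 and 1.43, Plet1 of 0.91 and 1.33, Rhox6 of 1.82 and 0.41, and Rhox9 of 1.68 and 0.04. Another Plet1 probe set had -0.17 in the vector pair. Tpbpa, of spongiotrophoblast, had 0.06 and -0.14 in 2i and vector, and Ctsq, of labyrinth giant cells, 0.51 and -0.16. Of the effectors only Gjb5, a placental connexin, rose in the common fit (adjusted p = 0.0458), with ratios of 1.03, 0.31, 0.85 and 0.52 in the Nanog, Esrrb, 2i and vector pairs.

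Among 23 measured other regulators of trophoblast, 6 were over 2-fold higher and 2 lower in the vector pair, with a median of 0.10, and 4 were over 2-fold higher with 2i against either reference. Fosl1, an AP-1 subunit of giant cells, had ratios of 0.04, -0.83, 0.99 and 2.92 in the 4 pairs, Cited1 had 0.32, -0.04, 2.42 and 1.48, and Msx2 had -0.24, 0.08, 1.15 and 1.65. The other Msx2 probe set had -0.002 in the vector pair. None of these 3 genes passed in limma. Id2, a dominant inhibitor of bHLH factors found in trophoblast progenitors, had 1.16, 0.64, 1.89 and 2.26 and rose in the common fit (adjusted p = 0.0312), as did Sox15 (adjusted p = 0.0225), and Grhl1 fell (adjusted p = 0.0134). Cebpb was the 1 gene of this list lower in the difference (adjusted p = 0.0466), with ratios of -1.40 and -1.49 for Nanog and Esrrb, against -0.04 for 2i and 0.21 for vector. Ets2, Dlx3 and Pparg had ratios between -0.08 and 0.32 in all pairs. In the vector pair another Dlx3 probe set had 0.49, and another of Ets2 had -0.22.

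The signalling and Hippo genes upstream were higher in part. Of all genes, 4.81 and 5.36 percent were over 2-fold higher in the 2i and vector pairs, and 3.1 and 3.85 percent lower. Of 11 measured signalling genes 2 were over 2-fold higher and 2 lower with 2i against either reference, and 2 were higher and 1 lower in the vector pair. Inhbb, an activin subunit, had ratios of -0.31, 0.38, -1.28 and -2.10. Its other probe set had -0.46 in the vector pair. Nodal, a ligand that supports trophoblast stem cells, rose in the common fit (0.44, 0.68, 1.41 and 1.07, adjusted p = 0.0312). Fgfr2, the receptor for FGF4 in trophoblast, had 0.34, -0.84, -0.001 and 1.28. Another Fgfr2 probe set had 0.07 in the vector pair. Of 18 measured Hippo genes 4 were over 2-fold higher in the vector pair. They were Ptpn14, a phosphatase that holds YAP in the cytoplasm, and the angiomotin genes Amotl1, Amotl2 and Amot. Other probe sets of Amot and Amotl1 had ratios down to -0.19 and 0.80 in the vector pair. Tead2, a relative of Tead4, was over 2-fold lower there at -1.20, with 0.04, 0.21 and -0.20 in the Nanog, Esrrb and 2i pairs. With 2i, 2 Hippo genes were over 2-fold higher, or 3 against the vector Dox-untreated array. Ptpn14 had 1.20, 1.07, 2.81 and 2.89 and passed both tests (adjusted p = 0.0309 for the common response and 0.0451 for the difference), and Mob1a fell in the common fit (adjusted p = 0.0355). Yap1 and Wwtr1, the coactivators of TEAD4, had ratios between -0.30 and 0.13. Other probe sets of Yap1 and Wwtr1 had up to 0.58 and 0.34 in the vector pair.

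Among 19 measured relatives of the members in the same families, Gata6, a GATA factor of primitive endoderm, had ratios of -0.59, -0.58, 1.5 and 1.43 and was lower under forced Nanog or Esrrb in the difference (adjusted p = 0.0466). Its level was 7.81 with Dox and 8.39 without in the Esrrb pair, above the 4.64 to 6.31 of the other 6 arrays. Another Gata6 probe set had a ratio of 0.04 in the vector pair. Tbx21, a T-box relative of Eomes, fell in the common fit (adjusted p = 0.0125), with ratios from -1.20 to -0.73. The Cdx relatives Cdx1 and Cdx4 and the AP-2 relatives Tfap2b and Tfap2d had ratios between -0.67 and 0.76 in all pairs, and the AP-2 relative Tfap2e had 0.10, 0.05, 0.57 and 0.98. The ETS relative Elf1 had -0.13, -0.10, 0.26 and 1.10. With 2i, 2 relatives were over 2-fold higher against either reference.

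Among 24 measured genes listed as repressors of trophoblast genes in ES cells, 0 were over 2-fold higher in any pair. With 2i, 1 was over 2-fold lower against either reference (Uhrf1). In the vector pair 4 were lower (Prdm14, Uhrf1, Tbx3 and Klf4), where another Tbx3 probe set had 0.03. Prdm14 had 10.42 with Dox and 10.25 without under 2i, and 8.02 and 9.83 in the vector pair. Uhrf1, needed for maintenance of DNA methylation, had ratios of -0.03, -0.43, -1.25 and -1.33. Pou5f1, which encodes OCT4, had ratios of -0.01, 0.11, -0.28 and -0.44, with 12.71 with Dox and 13.15 without in the vector pair (common adjusted p = 0.373). Sall4 fell in the common fit (adjusted p = 0.0416).

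**Figure D4:**
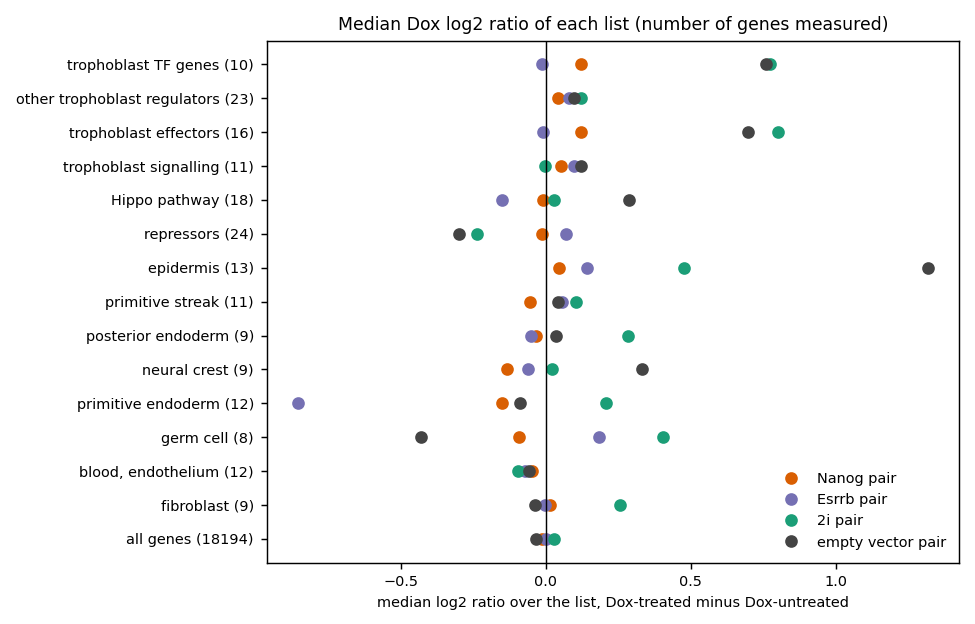
Median Dox log2 ratio (horizontal axis) over each gene list, with 1 point per pair, and the number of genes measured in brackets. The 10 trophoblast factors reach 0.77 and 0.76 in the 2i and vector pairs, the epidermis list 0.48 and 1.32, and the primitive streak and posterior endoderm lists reach at most 0.28.

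Markers of other cell types that share these factors were higher in part. Of 13 measured epidermis genes, 1 was over 2-fold higher with forced Nanog, 2 with forced Esrrb, 6 with 2i against either reference and 7 in the vector pair. Their summed linear signal was 2872 to 12604 on the Dox-treated arrays, against 1499 to 1932 on the Dox-untreated arrays. Over 2-fold higher in the vector pair were Sbsn, Dmkn, Krtdap, Sfn, Perp, Grhl3 and Krt15, of which Perp and Grhl3 rose in the common fit (adjusted p = 0.0285 and 0.0371), and Dmkn and Perp were lower in the difference under forced Nanog or Esrrb (adjusted p = 0.0311 and 0.0439). Among the defining keratinocyte genes Trp63 had ratios of -0.22 and -0.09 in the 2i and vector pairs, Krt14 -0.07 and 0.20, Krt5 0.43 and 0.88, Krt1 0.18 and 0.28, and Lor -0.36 and 0.15. Of 11 primitive streak genes, which share Eomes, 2 were over 2-fold higher in the vector pair (Lhx1 at 2.07 and Wnt3 at 1.48) and 0 in the others, with a summed signal of 321 to 431 with Dox and 301 to 363 without. Of 9 posterior endoderm genes, which share Cdx2, 0 passed 2-fold in any pair. Of 9 neural crest genes, which share Tfap2a, 1 was over 2-fold higher in the 2i pair (Ets1), or 2 against the vector Dox-untreated array, and 2 in the vector pair (Ets1 and Snai2). Foxd3, a factor of this list already at 8.43 to 9.01 on the Dox-untreated arrays, was over 2-fold lower in the vector pair at -1.27. It had -0.83 with 2i. Sox10 had ratios between -0.305 and 0.01 and Pax3 between -0.23 and 0.10. In the vector pair other probe sets of Sox10 and Pax3 had up to 0.45 and 0.86, and those of Ets1 and Snai2 down to 0.91 and 0.65. Of 8 germ cell genes, which share Tfap2c, 3 were over 2-fold higher and 1 lower in the 2i pair (3 and 2 against the vector Dox-untreated array), and 1 was higher and 3 lower in the vector pair (Prdm14, Prdm1 and Alpl), with a median of -0.43 there. In the common fit Dazl rose and Prdm1 fell (adjusted p = 0.0453 and 0.0394). The summed signals with and without Dox were 241 to 308 and 238 to 273 for posterior endoderm, 874 to 1461 and 804 to 1027 for neural crest, and 2181 to 4589 and 2885 to 3791 for germ cells. Of 12 blood and endothelium genes, which share Gata2, 1 was over 2-fold higher (Tek at 1.24) and 1 lower (Tal1 at -2.28) in the vector pair, and Tal1 and Lmo2 fell in the common fit (adjusted p = 0.0145 and 0.0324). Of 12 primitive endoderm genes 6 were over 2-fold lower with forced Esrrb, and 1 was higher (Gata6) and 1 lower (Lama1 at -1.36) in the vector pair. Of 9 fibroblast genes 1 was over 2-fold higher (Vim at 1.24) and 1 lower (Fn1 at -1.94) in the vector pair. The summed signals of these 3 lists with and without Dox were 729 to 1018 and 733 to 1106, 955 to 2052 and 1102 to 3652, and 4196 to 8090 and 6397 to 8091. The 2052 and 3652 of primitive endoderm came from the Esrrb arrays. Of 25 genes restricted to other tissues, Neurod1 rose in the common fit (adjusted p = 0.0145), with ratios of 2.28, 2.03, 3.30 and 3.92. The part of such cells in the members' values was not tested.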

How the data were processed

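RNA of 8 cultures was hybridised to Affymetrix GeneChip mouse arrays. The deposited values are log2 signals that the authors background-subtracted and normalized with robust multiarray analysis (RMA), with the affy package per the labels. They were used as deposited. Array medians lay between 5.31 and 5.36 and values between 1.82 and 14.63; with 8 arrays the precision is limited by their number. Of 45101 probe sets, 34958 had 1 gene symbol, 932 several and 9211 none in the platform annotation. No detection calls were used.

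Within a pair the log2 ratio was taken, with over 2-fold as the cutoff. Across pairs limma 3.58.1 in R 4.3.3 (lmFit, eBayes with a trend) fitted Dox with background as a block (3 residual degrees of freedom), and the difference in that response, pairs with forced Nanog or Esrrb minus the 2i and vector pairs (2 residual degrees of freedom). P-values are two-sided and Benjamini-Hochberg adjusted over all probe sets, with a threshold of 0.05. The backgrounds stand in for replicates, so p-values measure the spread between backgrounds, and nothing says that the cultures were repeated. On simulated data with 200 of 45101 probe sets changed, the common fit recovered 197 at a log2 change of 1 and 200 at 2. The difference recovered 42 and 199. False calls numbered 33 and 24 in the common fit, and 20 and 31 in the difference, in the same order. The simulated noise had the residual spread of the difference fit, and a change was the same in each background that received it. Recovery of a common response that differs between backgrounds, as that of Gata3 did, was not simulated.

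All members were named, with Gnl3, Dusp6 and Spry4 as checks of the labels, and from each list up to 4 genes with the largest ratio, higher or lower, past 2-fold in the vector pair; other list genes named were chosen after their values were seen. The members and lists were chosen with earlier results of these data known. Alternatives were averaging the probe sets of a gene, leaving out _x_at probe sets, a filter on dim probe sets, a further quantile normalization, centring each array, 1.5-fold and 3-fold cutoffs, a fit over genes, eBayes without a trend, no block, another 2i reference, and leaving out each pair.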

Additional observations from a re-analysis of the deposited data

Results flagged for a closer look

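The Dox response of Gata3 differed between the 2 kinds of pair: the coefficient of the Nanog and Esrrb pairs minus the 2i and vector pairs was -2.07 on the log2 scale (limma, adjusted p = 0.0489), with ratios of 0.26 for Nanog and -0.21 for Esrrb, against 2.23 for 2i and 1.95 for vector. The adjusted p ranged from 0.00018 to 0.641 over all alternatives, and without the Nanog pair (0.633) or the Esrrb pair (0.641) the call was lost. Groups of 1 array could not be searched for a sample far from the others.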

How the results depend on the processing

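Of 228 alternative values for the members, 207 kept direction and side of the threshold, 7 lost a call, 8 gained one, and 6 turned sign, all of them uncalled: the common response of Elf5 (-0.03) was 0.010 without the Nanog pair and 0.033 without the Esrrb pair, that of Tead4 (-0.05) was 0.004 with the mean of probe sets and from -0.101 to 0.033 when a pair was left out, with 0.033 without the Esrrb pair, and the differences of Hand1 (-0.11) and Tead4 (-0.07) were 0.083 and 0.132 without the Esrrb pair, out of ranges of -0.298 to 0.083 and -0.271 to 0.132. At 3-fold, 1 member gene in the 2i pair and 2 in the vector pair were past the cutoff, in place of 4 each. Of the other trophoblast regulators, 3 were past 3-fold in the vector pair in place of 6, and in the 2i pair 2 with the mean of probe sets, 8 at 1.5-fold and 2 at 3-fold in place of 4. The effectors numbered 10 at 1.5-fold in the 2i pair in place of 6, and the Hippo genes 1 with the mean of probe sets, 6 at 1.5-fold and 1 at 3-fold in place of 2.

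The common fit called 2712 probe sets, against 871 when the probe sets of a gene were averaged, 1287 in the fit over genes (fewer features were tested in both) and 3 to 272 when a pair was left out, with 3 without the Esrrb pair. Without the block (the pairing by background) it called 2167, and no member call changed. No paired analysis by replicate number was possible because the labels carry none. Under the filter on dim probe sets 1 member probe set passed, Eomes 1426001_at (adjusted p = 0.0487), in place of 0. The difference called 112 probe sets, against 1 with the mean of probe sets, 0 with the filter on dim probe sets, 15 in the fit over genes, 1 without a trend and 0 to 4050 when a pair was left out. Its member calls, 1 in the main setting, were 0 with the mean of probe sets, the dim filter, a further quantile normalization, the fit over genes and no trend, and 0 to 10 when a pair was left out: 9 without the 2i pair, 10 without the vector pair and 0 without the Nanog or the Esrrb pair. Such fits have 1 residual degree of freedom, and a lone pair is assumed to vary like the others. The cause of these moves was not tested.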
